A study of Mus musculus with 8 samples.

Results

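The miR-30 family on the mouse miRNA chip was measured by 7 probes, which were 5 guide arms (mmu-miR-30a, mmu-miR-30b, mmu-miR-30c, mmu-miR-30d and mmu-miR-30e) and 2 passenger arms (mmu-miR-30a* and mmu-miR-30e*). They were taken by probe name and make up 7 of the 1135 miRNA probes. The hairpin of a miRNA gives a guide arm, the strand that is mostly kept, and a passenger arm, which the array marks with *. Each miRNA was read by 1 spot on each array.

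Total RNA came from whole liver of male C57BL/6N mice, 8 weeks old at the start, that were all kept for 15 weeks on a diet lacking methionine and choline (MCD), which induces steatohepatitis. MCD-fed mice without drug gave 4 arrays, and MCD-fed mice treated with metformin, an oral biguanide given at 2.4 mg/day in the drinking water for 15 weeks, gave the other 4. Mice on a normal diet were not analysed here. The question was whether the miR-30 signals, and the ratio of guide to passenger arm, differed between MCD-fed mice with and without metformin.

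A miRNA guides a repressor complex to mRNAs that pair with its seed, the bases from position 2 to position 8. The miR-30 guides share a seed and can therefore recognise overlapping sets of targets. The family is abundant in many epithelial tissues, the liver among them. miR-30a was found to repress the autophagy gene Beclin 1 in human cells, miR-30c to repress microsomal triglyceride transfer protein, which loads lipid onto lipoproteins, and miR-30 members to repress connective tissue growth factor, a profibrotic protein, in heart cells of the rat.

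The mature sequences are shown because the family is defined by them and because near-identical arms can bind each other's probes. They were taken from RefSeq (GRCm38.p6), where 5 of the 7 members were matched, and the seed is in capitals.
miR-30a: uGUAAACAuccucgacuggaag
miR-30c: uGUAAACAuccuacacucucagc
miR-30e: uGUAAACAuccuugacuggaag
miR-30a*: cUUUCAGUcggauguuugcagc
miR-30e*: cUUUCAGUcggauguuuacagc

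The guide arms of miR-30a and miR-30e were identical except for 1 base, C13U, with positions counted from 1 at the 5′ end of miR-30a. miR-30c shared the first 12 bases with miR-30a and differed at 5 of 22 compared positions. The passenger arms miR-30a* and miR-30e* had another seed in common, and were also identical except for 1 base, G18A. Of the 1679 mature mouse miRNAs listed in the table, which does not list miR-30b or miR-30d, 4 had the guide seed (0.238%), namely these 3 guides and miR-384-5p, and 2 had the seed of the passenger arms (0.119%). The first count is therefore a lower limit.

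These arms come from hairpins at separate loci. miR-30a lies at chr1:23272274-23272295 on the plus strand and miR-30a* at chr1:23272315-23272336 in the same hairpin. miR-30e lies at chr4:120772660-120772681 on the minus strand, with miR-30e* at chr4:120772618-120772639. miR-30c is made from a pair of hairpins, Mir30c-2 on chromosome 1, which is 19361 bases from Mir30a, and Mir30c-1 on chromosome 4, which is 2983 bases from Mir30e. Mir30e and Mir30c-1 both lie within the span of Nfyc, a gene for a subunit of the transcription factor NF-Y.

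All 7 members were measured above background on all 8 arrays. The limit used was the mean + 2 SD of the 24 negative control spots, which was between 276 and 315 intensity units. The scanner signal of miR-30c was 8.25 to 12.9 times that limit, that of miR-30a 6.71 to 10.6 times, and that of miR-30d 5.0 to 8.49 times. For miR-30b it was 2.66 to 7.06 times, and for miR-30e 2.18 to 3.27 times. The passenger arms were close to the limit, at 1.2 to 1.66 times for miR-30a* and 1.30 to 1.65 times for miR-30e*. Probes bind their miRNAs with different strength, so the signals of different probes do not give the order of abundance.

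Among all 1135 probes, 198 to 284 were above this limit on an array, and 1070 were bright enough to be tested, over the mean + 2 SD of the blank spots on at least 4 arrays. miR-122, the main miRNA of hepatocytes, read 17416 to 27623 intensity units. The local background had array medians between 156 and 162 without metformin and between 135 and 143 with it, and the arrays of each group lay at another position in the scanned image, with the first spot at 3680 to 3690 and 35240 to 35270. Array position, local background and treatment cannot be told apart. The fold changes below are on the log2 scale of background-corrected values (normexp, offset 50), after the arrays were aligned on the median of 451 probes detected on every array, and they give MCD-fed mice treated with metformin against MCD-fed mice. They come from limma, with p-values adjusted by Benjamini-Hochberg over the 1070 probes tested. The p-values measure the spread between these arrays.

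The miR-30 signals were mostly somewhat higher with metformin, and no member passed the adjusted test. The fold change was positive for 6 of the 7 members, with a median of 0.21, and for 58.4% of all probes tested, with a median of 0.03. At an unadjusted p of 0.05, 3 of the 7 members were higher with metformin, namely miR-30b, miR-30d and miR-30a*, where 6.36% of all probes tested were higher. None of the 7 was lower, where the share of all probes was 3.08%. After adjustment in limma the count was 0 of 7 members and 0% of all probes, whose smallest adjusted p was 0.195. For bright probes the background was higher. Of the 158 probes above the negative control limit on all 8 arrays, which include the 7 members, 17.7% were higher at the unadjusted threshold, 72.2% had a positive fold change, and the median was 0.13.

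**Figure D1:**
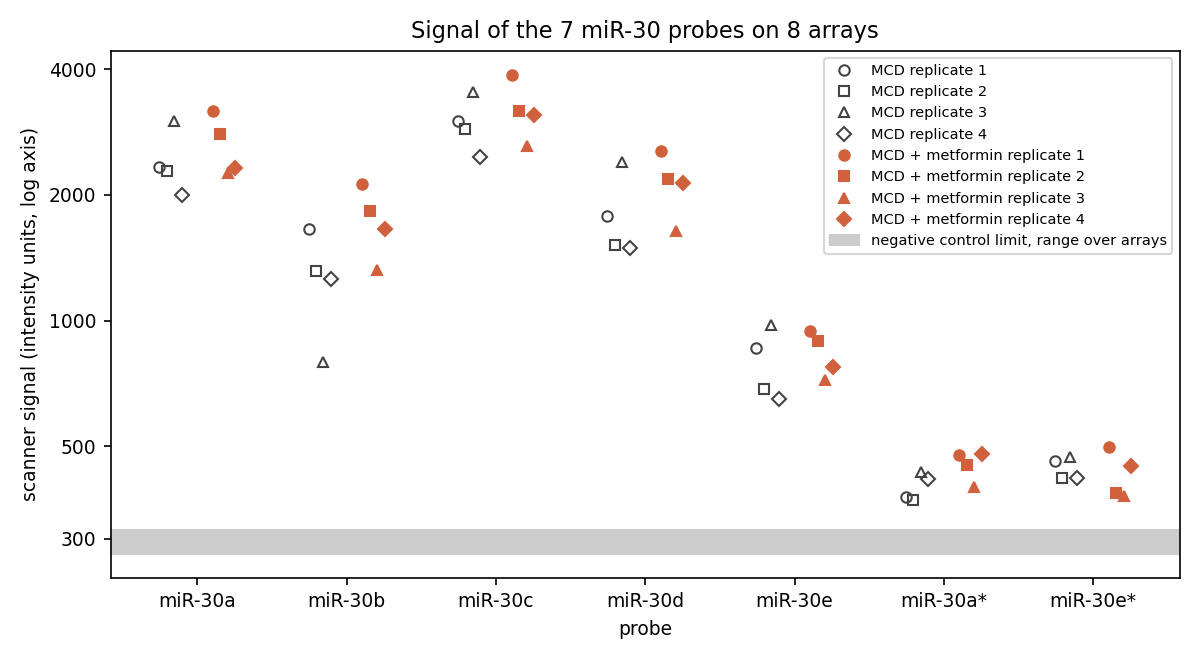
Scanner signal in intensity units (log axis) of the 7 miR-30 probes, with 1 point for each of the 8 arrays, open for MCD-fed mice and filled for MCD-fed mice treated with metformin; the grey band is the range of the negative control limit over the arrays. The groups overlap for each probe on this scale, miR-30b on MCD replicate 3 lies apart at 796, and the passenger arms lie just above the band.

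miR-30b had the largest fold change of the family with all 8 arrays, though not without MCD replicate 3, where it was 0.37 and those of miR-30d and miR-30a* were 0.50 and 0.44. Its scanner signals were 1658, 1314, 796 and 1260 in MCD-fed mice, replicates 1 to 4, and 2124, 1825, 1318 and 1658 with metformin. The means were 1257 ± 354 and 1731 ± 336 (SD, n = 4). After normalization 3 of the 4 metformin arrays were above every MCD array, and the groups overlapped through replicate 3 of the metformin group. The log2 fold change was 0.63 ± 0.21 (moderated SE), 1.55-fold, with a 95% interval of 0.19 to 1.08 and an adjusted p of 0.325 in limma (unadjusted 0.0079). The log2 values of miR-30b itself had SDs of 0.54 without metformin and 0.24 with it. The methods' t-test, which uses only these values, gave an unadjusted p of 0.0761. An exact permutation test, two-sided, gave 0.0571. The unadjusted threshold was passed in 18 of 22 alternative settings, and not with quantile normalization, subtraction of the blank spots, the deposited table or the methods' t-test.

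MCD replicate 3 was the lowest array for miR-30b and the highest MCD array for the other 4 guides. On it miR-30b was 0.78 below the mean of its group on the log2 scale, and miR-30d was 0.44 above. The ratio of miR-30b to miR-30e was 0.745 there, between 2.06 and 2.15 on the other MCD arrays, and between 1.97 and 2.43 with metformin. The ratio of miR-30b to miR-30d was 0.280 there, 0.825 to 0.925 on the other MCD arrays, and 0.756 to 0.822 with metformin. This array was therefore unlike the other 7 in the balance of miR-30b to its family.

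The spot was less even than the other guide spots of that array, which were all brighter. Its pixel spread was 0.215 of the mean, above the 0.131 to 0.164 of the other 4 guides there and the 0.107 to 0.169 of miR-30b on the other 7 arrays, and below the 0.237 and 0.282 of the dim passenger arms. On the other 7 arrays miR-30e, at signals of 650 to 942, had a spread of 0.168 to 0.240, so such a spread was also seen at like signals. Among all miRNA spots of the array, the 0.215 of the miR-30b spot was at percentile 9.78. The mean of its pixels was 0.994 of its median, and its local background was 183, where the other MCD arrays read 172 to 180. The deposited value table, which holds the same spot on another scale, lists 552 for it and 1041 to 1337 for the other MCD arrays. Whether the low value belongs to the liver or to the hybridisation was not tested.

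miR-30d was also higher at the unadjusted threshold. Signals of 1779, 1515, 2401 and 1492 were read in MCD-fed mice, and of 2554, 2187, 1639 and 2136 with metformin, with means of 1797 ± 423 and 2129 ± 376 (SD, n = 4). MCD replicate 3 was above all metformin arrays but replicate 1, so the groups overlapped. The log2 fold change was 0.35 ± 0.15 (SE), 1.28-fold, with an interval of 0.03 to 0.67 and an adjusted p of 0.453 in limma (unadjusted 0.0331, exact permutation 0.114). The unadjusted threshold was passed in only 4 of 22 alternative settings.

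miR-30a, miR-30c and miR-30e did not pass the unadjusted threshold. miR-30a read 2331, 2284, 3002 and 2001 in MCD-fed mice and 3181, 2791, 2250 and 2316 with metformin, and its log2 fold change was 0.21 ± 0.13 (SE; adjusted p 0.671). miR-30c read 3003, 2874, 3530 and 2461 against 3879, 3184, 2612 and 3109, a log2 fold change of 0.18 ± 0.12 (adjusted p 0.676). The third of them, miR-30e, read 858, 687, 976 and 650 against 942, 894, 720 and 773, a log2 fold change of 0.17 ± 0.14 (adjusted p 0.724). The groups overlapped for all 3 of these guides, with MCD replicate 3 high and metformin replicate 1 high each time. The 95% intervals of limma reached from -0.07 to 0.50 for miR-30a, from -0.08 to 0.45 for miR-30c and from -0.12 to 0.47 for miR-30e, so differences of these sizes could not be told from none. Quantile normalization lowered the log2 fold changes to 0.04 for miR-30a and miR-30e and turned that of miR-30c to -0.02, and without MCD replicate 4 they were 0.13, 0.07 and 0.09.

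**Figure D2:**
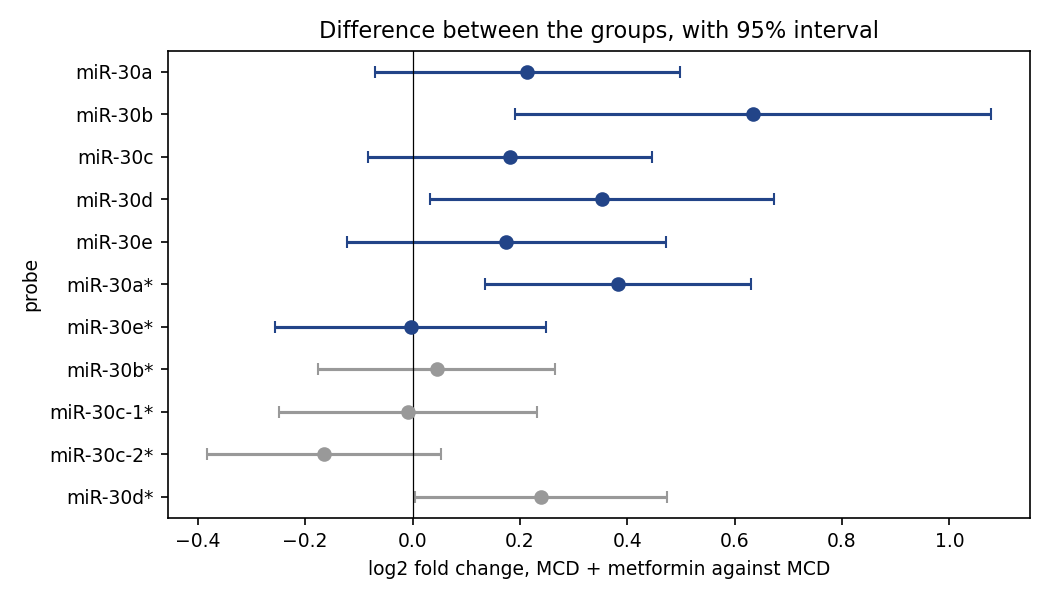
Log2 fold change (points) with the 95% interval of limma (bars), MCD-fed mice treated with metformin against MCD-fed mice, n = 4 and 4, for the 7 members (blue) and the 4 other passenger arms of the family (grey). Among the members, the intervals of miR-30b, miR-30d and miR-30a* lie above 0, before adjustment over the probes tested.

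The 2 passenger arms gave unlike fold changes, though the groups overlapped when the arms were compared directly, as given below. miR-30a* read 378, 372, 433 and 417 in MCD-fed mice and 477, 452, 400 and 480 with metformin, with means of 400.0 ± 29.7 and 452 ± 37.0 (SD, n = 4). The normalized log2 values ran from 7.67 to 8.02 without metformin and from 8.09 to 8.35 with it, and did not overlap. It was the only member without overlap, where 2.8% of all probes tested were higher without overlap. The log2 fold change was 0.38 ± 0.12 (SE), 1.30-fold, with an interval of 0.13 to 0.63 and an adjusted p of 0.274 in limma (unadjusted 0.00485), and the exact permutation p was 0.0286, the smallest that 4 against 4 arrays can give.

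This result moved with the background correction. At the miR-30a* spot the local background lay between 174 and 181 without metformin and between 149 and 159 with it, a difference of the same direction as on the whole array. The log2 fold change was 0.21 without background correction, 0.32 with plain subtraction, 0.44 with the blank spots subtracted and 0.49 with an offset of 0. The unadjusted p of limma was 0.0066, 0.0208, 0.0743 and 0.0128 in that order. The groups were free of overlap in 3 of 9 ways of setting background and scale, and overlapped in the other 6, as they did in the raw signals, where replicate 3 of the metformin group read 400 and MCD replicate 3 read 433.

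For miR-30e* the difference was close to 0 with a wide interval. The probe read 462, 419, 470 and 420 in MCD-fed mice and 498, 386, 381 and 449 with metformin, with means of 443 ± 27.0 and 429 ± 55.7 (SD, n = 4). The metformin arrays lay on both sides of the MCD arrays. The log2 fold change was -0.00 ± 0.12 (SE), with an interval of -0.26 to 0.25 and an adjusted p of 0.994 in limma. The log2 ratio of miR-30a* to miR-30e*, formed within each array, was -0.58, -0.37, -0.26 and -0.11 in MCD-fed mice and -0.15, 0.26, 0.05 and 0.08 with metformin. It was higher with metformin by 0.39 ± 0.13 (SE), and 3 of 4 metformin arrays were above every MCD array, but the exact permutation p was 0.0571.

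**Figure D3:**
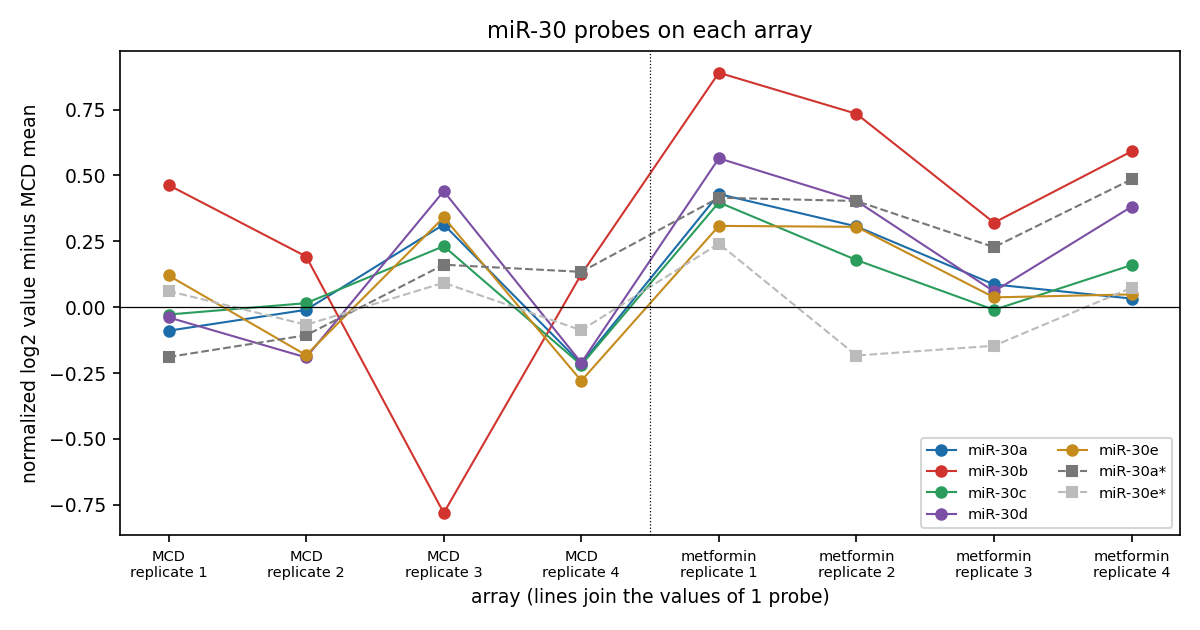
Normalized log2 value of each miR-30 probe minus its mean over the 4 MCD arrays (vertical axis), for each array (horizontal axis); lines join the values of 1 probe and have no order in time, circles are guide arms and squares passenger arms. miR-30b falls to -0.78 on MCD replicate 3 where miR-30d stands at 0.44, and on each of the other 7 arrays its line is the highest of the guides. That low value also lowers the MCD mean subtracted from miR-30b, which lifts its line on the other arrays. The height of a line is not the level of the probe.

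The ratio of guide to passenger arm did not differ beyond the spread in either hairpin. For miR-30a the log2 ratio was 3.32, 3.31, 3.37 and 2.87 in MCD-fed mice and 3.23, 3.12, 3.07 and 2.76 with metformin. The means were 3.22 ± 0.23 and 3.05 ± 0.20 (SD, n = 4), which are ratios of 9.29 and 8.26. Replicate 4 was the lowest in both groups, and the groups overlapped. The difference was -0.17 ± 0.15 (SE), with an exact permutation p of 0.343, and 0.343 after adjustment over the 2 hairpins. Its size depended on the setting, from -0.36 under quantile normalization (exact permutation p 0.0571) to -0.04 without background correction, and it was -0.29 without MCD replicate 4 (exact permutation p 0.0571), -0.23 without metformin replicate 1 and -0.07 without metformin replicate 4.

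For miR-30e the log2 ratio was 1.17, 0.99, 1.36 and 0.92 in MCD-fed mice and 1.18, 1.6, 1.29 and 1.08 with metformin. Its means were 1.11 ± 0.20 and 1.29 ± 0.22 (SD, n = 4), ratios of 2.16 and 2.44. The difference was 0.18 ± 0.15 (SE), opposite in sign to that of miR-30a, with an exact permutation p of 0.286 (adjusted 0.343). It was 0.07 under quantile normalization, 0.08 without metformin replicate 2, 0.11 without MCD replicate 4 and 0.26 without MCD replicate 3. Since the offset draws dim probes together, the ratios were also formed from signals above the blank spots, which gave 12.7 ± 2.09 and 10.4 ± 1.45 for miR-30a (SD, n = 4, exact permutation p 0.143) and 2.59 ± 0.361 and 3.03 ± 0.687 for miR-30e (exact permutation p 0.314). These ratios are not ratios of molecules, because the arms are read by different probes, and only their difference between the groups can be read.

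**Figure D4:**
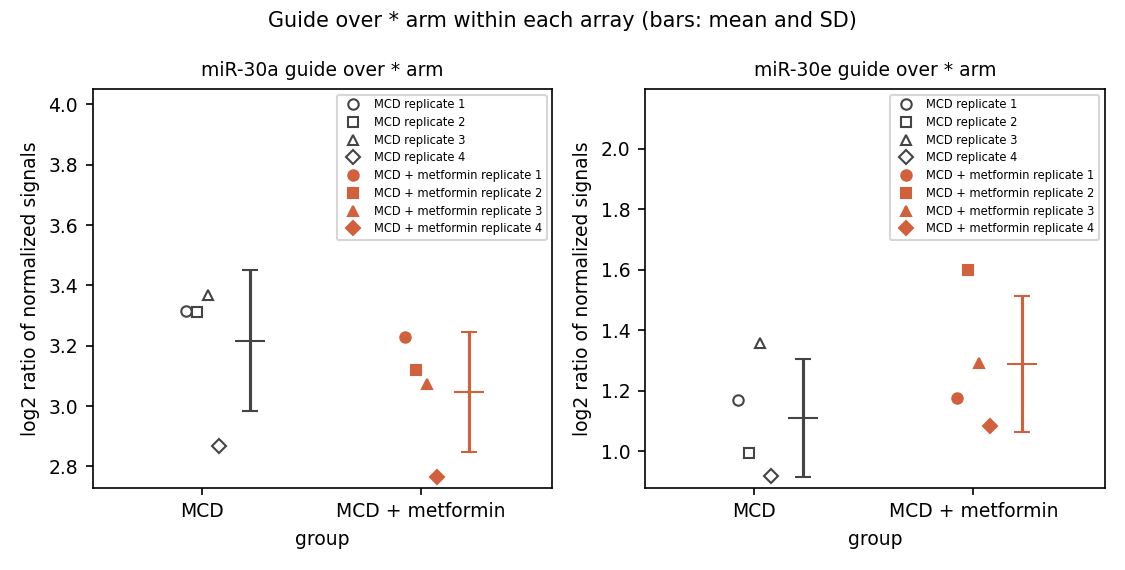
Log2 ratio of guide to passenger arm within each array for miR-30a (left) and miR-30e (right), with 1 point per array and bars for the mean and SD of 4 arrays; the vertical axes have different ranges and do not start at 0. The groups overlap in both hairpins, with means of 3.22 and 3.05 for miR-30a and 1.11 and 1.29 for miR-30e.

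The guides were then compared with each other, as 10 log2 ratios within each array. None differed between the groups after adjustment over the 10 pairs. The smallest exact permutation p, 0.0857 (adjusted 0.5), belonged to miR-30c over miR-30d, which was lower with metformin by a log2 difference of -0.17 ± 0.09 (SE). The ratios among miR-30a, miR-30c and miR-30e differed by 0.04 ± 0.09 (SE) for miR-30a over miR-30e, 0.03 ± 0.06 for miR-30a over miR-30c and 0.01 ± 0.10 for miR-30c over miR-30e. miR-30d over miR-30e was higher by 0.18 ± 0.09 (exact permutation p 0.143) and miR-30b over miR-30e by 0.46 ± 0.38 (exact permutation p 0.2), or by 0.09 without MCD replicate 3.

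**Figure D5:**
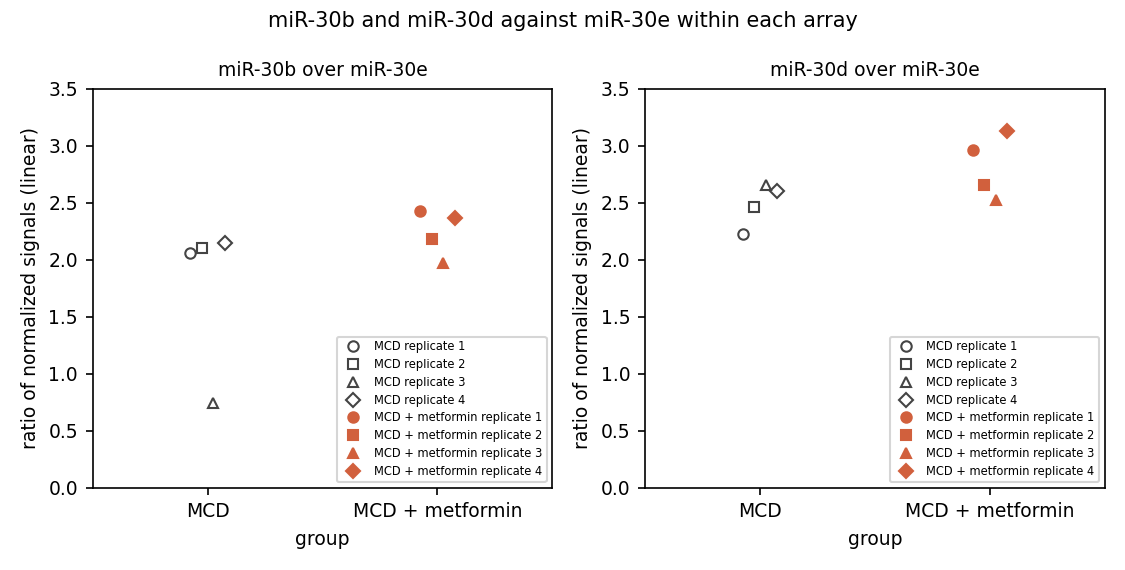
Ratio of miR-30b to miR-30e (left) and of miR-30d to miR-30e (right) within each array, on a linear axis from 0, with 1 point per array. MCD replicate 3 stands at 0.745 for miR-30b over miR-30e, below the 1.97 to 2.43 of the other 7 arrays, and lies among the others for miR-30d over miR-30e.

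Across the 8 arrays the guides other than miR-30b varied together. The 6 pairs among miR-30a, miR-30c, miR-30d and miR-30e had Pearson's r of 0.832 to 0.926 and Spearman's rho of 0.81 to 0.952. Exact permutation p-values for r were 0.00131 to 0.0114, or 0.0167 to 0.04 after adjustment over the 21 pairs of members, and those for rho 0.00114 to 0.0218, or 0.0156 to 0.0762 after adjustment. The rho of miR-30e with miR-30a and with miR-30c did not pass that adjustment. With the 2 arrays farthest from the median left out, r was 0.683 to 0.913, and r of the deviations from the group means was 0.795 to 0.899. These values share their arrays and scaling, and miR-30a and miR-30e differ at 1 base, so the part of common binding and of array quality in them was not tested.

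miR-30b correlated with these 4 guides at r of 0.0446 to 0.187 (exact permutation p 0.644 to 0.923; rho 0.31 to 0.476, p 0.243 to 0.462). Without MCD replicate 3 the same r was 0.865 to 0.956, so the low values rested on that array. The 10 pairs of a guide and a passenger arm had r of 0.0267 to 0.754, and none passed adjustment (smallest exact permutation p 0.0381, adjusted 0.114).

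Without MCD replicate 3 the family looked different. In that comparison of 3 against 4 arrays, 5 of the 7 members were higher at the unadjusted threshold of limma, where 6.54% of all probes tested were. The share of bright probes was not computed for it, and was 17.7% with all 8 arrays. The array was singled out from these same values. It was the highest MCD array for every member but miR-30b, so the rise of their fold changes was built in, and the count is only a description. miR-30d then had a log2 fold change of 0.50 ± 0.13 (SE; adjusted p 0.239), miR-30a of 0.32 ± 0.13 (adjusted p 0.470), miR-30e of 0.29 ± 0.13 (adjusted p 0.514) and miR-30a* of 0.44 ± 0.12 (adjusted p 0.239). That of miR-30b dropped to 0.37 ± 0.14 (adjusted p 0.470). With each of the other arrays left out in turn, the log2 fold change was 0.13 to 0.27 for miR-30a and 0.07 to 0.21 for miR-30e, with no unadjusted p under 0.05 for either. Without MCD replicate 3, all 4 metformin arrays were above the 3 MCD arrays for miR-30a, miR-30d and miR-30a*. That array was the highest MCD array for each of these probes, so leaving it out could only widen the gap. The share of all probes that separate in this way was not computed. In the same comparison the ratios of miR-30b and of miR-30c to miR-30d stood lower with metformin. Their log2 differences were -0.13 and -0.24, against 0.28 and -0.17 with all 8 arrays. The exact permutation p was 0.0286 each, the smallest that 3 against 4 arrays can give (adjusted 0.143). MCD replicate 3 had the lowest MCD value of both ratios, so leaving it out could only move the differences this way. No member passed adjustment with or without this array.

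The other passenger arms of the family gave signals near background. miR-30b*, miR-30c-1*, miR-30c-2* and miR-30d* read 236 to 276 and were above the negative control limit on 0 of 8 arrays. In limma 1 of the 4 was higher at the unadjusted threshold, miR-30d*, with a log2 fold change of 0.24 ± 0.11 (SE; adjusted p 0.5), where 6.36% of all probes tested were. The lowest fold change of the 4 was that of miR-30c-2*, at -0.17 ± 0.10 (SE). Its normalized values were lower with metformin without overlap (exact permutation p 0.0286, limma unadjusted 0.127), at signals below the negative control limit. A separation like that of miR-30a* was thus also seen, in the other direction, in a probe near background. The share of all probes lower without overlap was not computed. miR-384-5p, which has the miR-30 seed and is best known from brain, read 240 to 295, was detected on 3 arrays and was not tested.

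Probes outside the family also varied with the guides. Among 151 probes above the negative control limit on all arrays, the highest Pearson's r with the mean of the 5 guides over the 8 arrays was found for miR-29a (r 0.934, rho 0.952), miR-140 (r 0.918, rho 0.905) and let-7c (r 0.904, rho 0.952). Their log2 fold changes were 0.24, 0.22 and 0.30. As families for comparison, 2 of 3 miR-29 members, miRNAs that repress collagens, were higher at the unadjusted threshold, with a median log2 fold change of 0.31, and 0 of 9 let-7 members, a family linked to differentiation, with a median of 0.07. For miR-26, 0 of 2 were higher, with a median of 0.18. Of all probes tested, 6.36% were higher at that threshold, with a median of 0.03. Of the 158 probes above the negative control limit on all 8 arrays, 17.7% were higher, with a median of 0.13.

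Whole liver was measured, so fewer cells of a type and less RNA per cell cannot be told apart. Of the hepatocyte miRNAs (miR-122, miR-192, miR-194 and miR-148a), 4 of 4 were higher at the unadjusted threshold, with a median log2 fold change of 0.43, and their signals summed to between 23654 and 26949 without metformin and between 28034 and 37823 with it. At that threshold 6.36% of all probes tested were higher, and 17.7% of the 158 probes above the negative control limit on all 8 arrays. The medians of these sets were 0.03 and 0.13. The median of the miR-30 members, 0.21, lay between the 0.13 of the 158 probes and the 0.43 of the hepatocyte miRNAs. Both endothelial miR-126 arms were higher, with a median of 0.31 and summed signals of 4013 to 5277 and 4693 to 6191. Among 5 leukocyte miRNAs, 1 was lower (miR-223, log2 fold change -0.60), where 3.08% of all probes tested were lower. The signals of the 5 summed to 1715 to 2298 without metformin and 1457 to 1822 with it. None of 4 stellate cell miRNAs (median -0.19, summed signals 2419 to 4308 and 2115 to 3934), 4 biliary miRNAs (median -0.39, 1619 to 3496 and 1255 to 2674) or 2 red blood cell miRNAs (median 0.13, 1021 to 2136 and 1295 to 2286) passed the unadjusted threshold. miR-144 of red blood cells was above the negative control limit on 0 arrays, miR-155 of leukocytes on 1 and miR-200c on 3. All these sums are of raw signals, with the background left in. Blank spots alone had trimmed means of 223 to 233 without metformin and of 216 to 228 with it. In lists of dim probes much of the sum is therefore background. Most of the hepatocyte sum is miR-122, which read 17416 to 27623. The part of cell composition in the miR-30 values was not tested.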

How the data were processed

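The authors labelled liver RNA, hybridised it to the mouse miRNA Oligo chip and scanned it, and the deposited scanner values give for each spot a median intensity and a median local background, linear and not normalized. The deposited value table holds intensity too. On each array it is a straight line of the signal, brought to a median of 45, with 57 to 173 probes empty, and was used as an alternative. The methods also name scaling to 28S RNA and an analysis of variance, which were not run. Groups came from the labels, and the text on the authors' heat map gives individual animals. The label names the dye Hy5, whereas the deposited columns are named for a green laser wavelength.

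Values were computed with R 4.3.3 and limma 3.58.1: normexp (offset 50), log2, and a shift of each array by its median over 451 detected probes. Because of the offset, fold changes of dim probes are understated. lmFit and eBayes ran on 1070 probes, unpaired and two-sided. Exact permutation tests used all assignments of arrays to groups, 70 for 4 against 4, and for correlations all orders of the 8 arrays. The functions were tested on simulated data. Precision is limited by having 4 arrays a group.

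The members were taken by probe name, but the family and the lists were chosen for study with earlier results of these data known. Named probes were all 7 members, the 4 other passenger arms, probes with the miR-30 seed, the 3 most alike, and members of fixed marker and family lists. The alternatives were other backgrounds, scalings, filters on dim probes, the deposited table, a replicate block, robust eBayes with a variance trend, the methods' t-test, and leaving out each array. The number of columns matching no sample was 0.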

Additional observations from a re-analysis of the deposited data

Results flagged for a closer look

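In 3 of 38 groups of 4 arrays that were looked at, 1 array lay so far out that its gap to the nearest other, divided by the range of the group, exceeded Dixon's 95% critical value. With that limit, chance alone marks about 5% of groups. All 3 were ratios in MCD-fed mice.

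The log2 ratio of miR-30b to miR-30e had a gap of 0.96 of the range, with MCD replicate 3 at -0.42 and the others at 1.04 to 1.10. The log2 ratio of miR-30b to miR-30d had a gap of 0.903, with the same array at -1.84 and the others at -0.28 to -0.11. Both rest on the 1 low miR-30b spot and are not separate observations. The log2 ratio of the guide to the passenger arm of miR-30a had a gap of 0.889, with MCD replicate 4 at 2.87 and the others at 3.31 to 3.37.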

How the results depend on the processing

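No member had an adjusted p under 0.05 in any of 22 alternatives, the lowest being 0.219 for miR-30a*. Over them the log2 fold change was 0.37 to 0.78 for miR-30b (unadjusted p under 0.05 in 18), 0.21 to 0.49 for miR-30a* (in 20) and 0.15 to 0.50 for miR-30d (in 4). The 3 members higher at the unadjusted threshold became 1 under quantile normalization, 0 with the blank spots subtracted, 0 in the deposited table, 1 with the methods' t-test, and 2 to 5 with each array left out, 5 being without MCD replicate 3. Of all probes tested, 68 higher and 33 lower became 43 and 50 under quantile normalization, 24 and 60 with no scaling, 31 and 50 in the deposited table, 41 and 15 among probes detected on all arrays, and 24 and 10 among those over the limit of the negative controls on 4 or more arrays. The higher probes were 41 with no background correction and 37 with the blank spots subtracted. Leaving out each array gave 0 to 9 probes past the adjusted threshold, 9 being without MCD replicate 4. Directions turned for values near 0: miR-30c under quantile normalization (-0.0181), miR-30e* with an offset of 0 (0.0132), and miR-30c over miR-30e under quantile normalization (-0.0581), an offset of 0 (-0.00135), plain subtraction (-0.0250), blank subtraction (-0.0218) and in the deposited table (-0.0218). With each array left out, the ranges were -0.0851 to 0.0574 for miR-30e*, -0.0310 to 0.0963 for miR-30a over miR-30e, -0.0425 to 0.0727 for miR-30c over miR-30e and -0.125 to 0.449 for miR-30b over miR-30d, negative only without MCD replicate 3. The causes were not tested. Same-numbered arrays did not deviate together (correlations of 0.0219, 0.0311, -0.301 and -0.136, none highest with its own number). No pairing by number was therefore seen, though such correlations cannot exclude it. With a replicate block in limma, 2 members were higher. These were miR-30b (unadjusted p 0.00076, adjusted 0.314) and miR-30a* (unadjusted p 0.0104, adjusted 0.447). The guide to passenger differences, -0.17 and 0.18, which pairing cannot change in a balanced design, had exact sign-flip p of 0.125 and 0.375. The smallest p that this test can give with 4 pairs is 0.125, so it could not reach 0.05. For miR-30a that smallest value was reached, as every metformin array was below the MCD array of the same number. Over 15 alternatives the guide to passenger differences kept their signs, at -0.36 to -0.04 for miR-30a and 0.07 to 0.26 for miR-30e, with exact permutation p of 0.0571 or more. Depth cannot be given for arrays, and the passenger arms were limited by signals at most 1.66 times the negative control limit.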
